A study of Mus musculus with 8 samples.

Results

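The genes described here are 8 genes of cholesterol and fatty acid synthesis, measured by RNA-seq in mouse lung. They were chosen by symbol, were mapped through their Ensembl gene IDs, and make up 8 of the 55416 genes in the files. *Hmgcs1*, *Idi1* and *Sqle* encode enzymes of cholesterol synthesis, *Insig1* encodes a regulator of that pathway, and *Acly*, *Acaca*, *Fasn* and *Scd1* encode enzymes of fatty acid synthesis and desaturation. All 8 passed edgeR's filter on low counts and were among the 18560 genes tested.

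Lung tissue was taken from female C57BL/6 mice (C57BL/6J in the methods), 6 to 8 weeks old, 24 h after treatment. The methods describe RNA-seq of 1 side of the lung, and the RNA of 8 mice was analysed. The control group (mice 1, 2 and 4) received the solvent DMSO intravenously and then saline intraperitoneally. The LPS group (mice 1, 6 and 7) received 35 mg/kg of LPS, the bacterial endotoxin, and no DMSO is described for it. As described, these 2 groups thus also differ in DMSO and its injection, which cannot be told apart from LPS. Lowered or raised by LPS means the difference between these 2 groups. The dual-treatment group (mice 2 and 5) received 10 mg/kg of YW3-56, an inhibitor of protein arginine deiminases, in DMSO 0.5 h before the same dose of LPS. The methods describe 3 mice taken per group, and the RNA-seq of the dual treatment has 2. There was no group given YW3-56 alone, so that an effect of the inhibitor or of DMSO by itself cannot be told apart from an effect on the response to LPS. The total count per library ran from 19061949 to 20908608.

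Cells make cholesterol from acetyl-CoA through mevalonate, isoprenoids, squalene and lanosterol, and make fatty acids from acetyl-CoA and malonyl-CoA. SREBP transcription factors switch on the genes of both pathways when sterols in the endoplasmic reticulum are low, and INSIG proteins hold the SREBP complex there when sterols are plentiful. In the lung, alveolar type 2 cells use both pathways to make the lipids of surfactant, and SREBP and LXR factors also set the lipid content of macrophages.

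Values per mouse are CPM (counts scaled to a common library total) after TMM normalization. Groups were compared with edgeR's quasi-likelihood test over all 8 libraries, and a gene was called higher or lower where its Benjamini-Hochberg adjusted p, taken over all 18560 genes, was under 0.05. Each p-value weighs the difference between 2 groups against the spread between mice within groups. That spread is estimated over all 3 groups and moderated over genes. Changes are log2 fold changes (log2FC) ± the standard error. The 3 comparisons share their mice, so their values are given side by side. Scaling by library size alone, an alternative to TMM, shifts all genes together: the median log2FC of all genes becomes -0.294 with LPS and 0.383 in the dual-treatment group against LPS. Values and counts under it are to be read beside that shift.

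LPS lowered 6 of the 8 genes and raised none of them. The count of genes raised was also 0 at an unadjusted p under 0.05 and with DESeq2. Over all genes, 33.9% were called lower and 32.6% were called higher in this comparison. The median log2FC of the 8 genes was -0.92, beside -0.01 for all genes. Between the dual-treatment group and the LPS group, 5 of the 8 were called higher and none lower, while 31.7% of all genes were called higher and 27.4% lower. The median log2FC of the 8 was 0.47, beside 0.06 for all genes, and the count of 0 was the same at an unadjusted p and with DESeq2. Against control, the dual-treatment group had 4 of the 8 genes lower and none higher, while 7.02% of all genes were called lower and 9.13% higher. Here the median was -0.46, beside 0.004, and no gene of the 8 was higher at an unadjusted p or with DESeq2. In lung tissue, fewer cells of a type and less RNA per cell cannot be told apart.

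The counts of the 2 comparisons with the dual-treatment group changed when single mice were left out. The share of all genes called in those fits is not given beside them. Some calls were lost with little change in log2FC, as for *Idi1* below. The 5 genes higher against LPS became 3 without LPS mouse 6, 3 without dual-treated mouse 2 and 2 without dual-treated mouse 5. The 4 genes lower against control became 2 without control mouse 2, 2 without control mouse 4 and 1 without dual-treated mouse 2. The count lower with LPS was 6 with each mouse left out in turn, except for LPS mouse 7, without which it was 8.

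*Hmgcs1*, which makes HMG-CoA at the entry to the mevalonate pathway, had 93.8, 82.0 and 85.2 CPM in control mice 1, 2 and 4. It had 39.2, 42.0 and 50.9 CPM in LPS mice 1, 6 and 7, and 59.1 and 74.8 CPM in dual-treated mice 2 and 5. All LPS mice lay below both dual-treated mice, and these lay below all control mice. With LPS *Hmgcs1* was 1.98-fold lower (log2FC -0.98 ± 0.129, adjusted p = 0.000113 by edgeR). It was higher in the dual-treatment group than in the LPS group (0.60 ± 0.141, adjusted p = 0.00497), a call lost without dual-treated mouse 5 (0.40, adjusted p = 0.0724). Against control the log2FC was -0.38 ± 0.143 and did not pass the test (adjusted p = 0.104) except without dual-treated mouse 5 (-0.59, adjusted p = 0.0460).

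*Idi1*, the isomerase that supplies the building block of all isoprenoids, changed most among the 8 genes with LPS. It had 22.1, 25.4 and 21.5 CPM in the control mice, 4.03, 4.68 and 8.54 CPM in the LPS mice, and 10.4 and 10.7 CPM in the dual-treated mice. The 3 groups did not overlap, and the dual-treated mice were nearer to LPS mouse 7 than to any control mouse. LPS lowered *Idi1* 3.99-fold (log2FC -2.0 ± 0.252, adjusted p = 9.06e-05 by edgeR). The dual-treatment group was higher than LPS (0.87 ± 0.275, adjusted p = 0.0211) and lower than control (-1.12 ± 0.276, adjusted p = 0.0234). The difference from LPS no longer passed without LPS mouse 6 (0.74, adjusted p = 0.0664), dual-treated mouse 2 (0.86, adjusted p = 0.0682) or dual-treated mouse 5 (0.83, adjusted p = 0.0830), or in a fit of only the 2 groups (0.85, adjusted p = 0.0696). The difference from control lost its call without any 1 of the 3 control and 2 dual-treated mice, with log2FC from -1.20 to -1.05.

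*Sqle*, the squalene epoxidase that makes the first oxygenated step towards the sterol ring, had 32.8, 34.5 and 33.3 CPM in the control mice. It had 23.6, 26.4 and 34.1 CPM in the LPS mice and 27.6 and 30.6 CPM in the dual-treated mice. LPS mouse 7 lay within the control range, and both dual-treated mice lay within the LPS range. The log2FC with LPS was -0.26 ± 0.137 with a 95% confidence interval from -0.57 to 0.05, and it did not pass the test (adjusted p = 0.122 by edgeR). Without LPS mouse 7 it did (-0.41, adjusted p = 0.00826), as with scaling by library size alone (-0.53, adjusted p = 0.0171). The dual-treatment group differed from LPS by 0.05 (95% interval from -0.29 to 0.39) and from control by -0.21 (from -0.55 to 0.14), neither past the test.

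*Insig1*, whose protein retains the SREBP complex and is itself made under SREBP control, had 90.7, 73.4 and 75.7 CPM in the control mice. LPS mice had 64.7, 62.7 and 73.2 CPM, and dual-treated mice 52.8 and 62.1 CPM. All LPS mice lay below the lowest control mouse, mouse 7 only just, and the dual-treated mice were the lowest of the 8. The log2FC with LPS, -0.26 ± 0.114, did not pass the test (adjusted p = 0.0719 by edgeR) except without LPS mouse 7 (-0.32, adjusted p = 0.0440) or with scaling by library size alone (-0.54, adjusted p = 0.00431). Against control the dual-treatment group was called lower (-0.48 ± 0.129, adjusted p = 0.0353). That call was lost without any 1 of the 3 control mice or dual-treated mouse 2 (adjusted p from 0.0585 to 0.200), and with library size scaling (-0.44, adjusted p = 0.0720). Against LPS the dual-treatment group differed by -0.22 ± 0.129 (95% interval from -0.51 to 0.07), which did not pass. With that scaling the value against LPS was 0.10, which minus the median of all genes is -0.28, as with TMM.

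The first steps of fatty acid synthesis fell together with LPS. *Acly*, which splits citrate into cytosolic acetyl-CoA for both pathways, had 232, 269 and 256 CPM in the control mice, 135, 127 and 126 CPM in the LPS mice, and 155 and 172 CPM in the dual-treated mice. The groups did not overlap, and the LPS mice differed by little. LPS lowered *Acly* 1.95-fold (log2FC -0.96 ± 0.0976, adjusted p = 2.21e-05 by edgeR). The dual-treatment group was higher than LPS (0.34 ± 0.108, adjusted p = 0.0212; 0.67 with library size scaling, or 0.29 minus the median of all genes) and lower than control (-0.62 ± 0.11, adjusted p = 0.00546). The difference from LPS was lost without LPS mouse 6 (0.32, adjusted p = 0.0533) or dual-treated mouse 5 (0.24, adjusted p = 0.146), or in a fit of only the 2 groups (0.32, adjusted p = 0.0529).

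*Acaca*, the carboxylase that makes malonyl-CoA and commits acetyl-CoA to fatty acids, had 98.2, 124 and 125 CPM in the control mice. LPS mice had 46.0, 38.0 and 47.8 CPM, and dual-treated mice 84.1 and 85.7 CPM. The dual-treated mice agreed closely with each other and lay between the other groups without overlap. *Acaca* was 2.64-fold lower with LPS (log2FC -1.40 ± 0.125, adjusted p = 1.06e-05 by edgeR) and 1.93-fold higher in the dual-treatment group than in the LPS group (0.95 ± 0.136, adjusted p = 0.000300). Both calls held without any 1 mouse. Against control the value was -0.45 ± 0.138 and missed the threshold (adjusted p = 0.0554). It passed under several alternatives, among them without control mouse 1 (-0.55, adjusted p = 0.0344), without LPS mouse 6 (-0.45, adjusted p = 0.0433) and without LPS mouse 7 (-0.45, adjusted p = 0.0459).

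*Fasn*, the synthase that builds palmitate, had 506, 622 and 688 CPM in the control mice, 381, 280 and 331 CPM in the LPS mice, and 317 and 368 CPM in the dual-treated mice. Both treated groups lay below all control mice, and the dual-treated mice lay within the LPS range. LPS lowered *Fasn* 1.83-fold (log2FC -0.87 ± 0.155, adjusted p = 0.000789 by edgeR). The dual-treatment group was lower than control (-0.82 ± 0.176, adjusted p = 0.0134), a call lost without dual-treated mouse 2 (-0.75, adjusted p = 0.0786). Its difference from LPS was 0.05 ± 0.172 (95% interval from -0.33 to 0.44) and did not pass.

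*Scd1*, the desaturase that turns saturated into monounsaturated fatty acids, had 1214, 1253 and 1745 CPM in the control mice. LPS mice had 966, 841 and 810 CPM, and dual-treated mice 1492 and 1197 CPM. All LPS mice lay below the other 5 mice, and the dual-treated mice overlapped the control range. *Scd1* was 1.61-fold lower with LPS (log2FC -0.69 ± 0.169, adjusted p = 0.00535 by edgeR). It was 1.54-fold higher in the dual-treatment group than in the LPS group (0.62 ± 0.186, adjusted p = 0.0165), a call lost without dual-treated mouse 2 (0.43, adjusted p = 0.125). Against control the difference was -0.06 ± 0.188 (95% interval from -0.49 to 0.36).

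**Figure D1:**
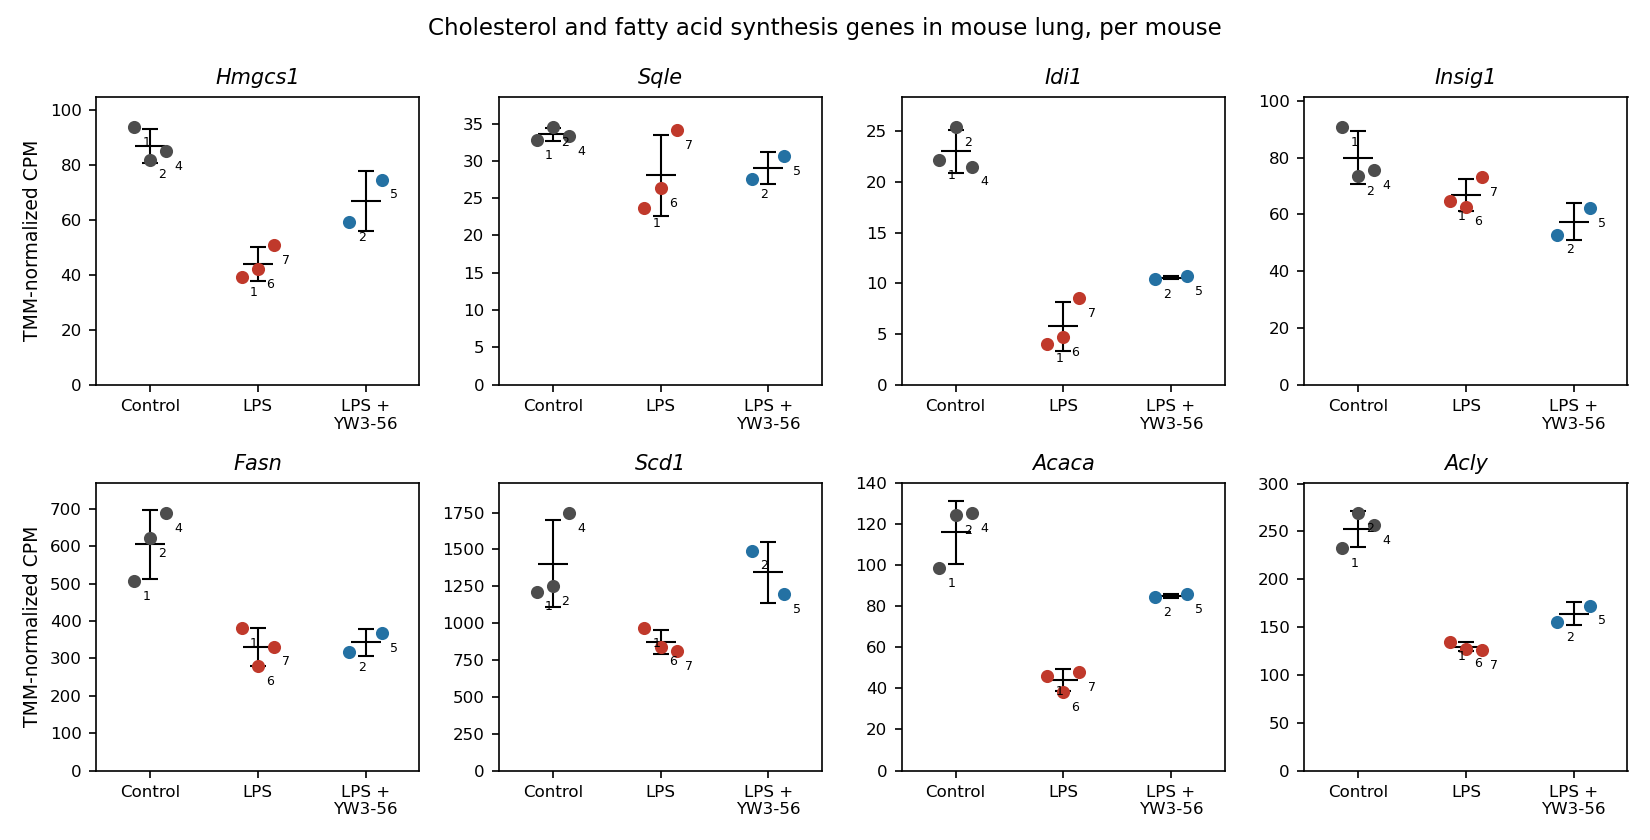
TMM-normalized CPM of the 8 genes in each mouse (points, with the mouse number) of the control, LPS and LPS plus YW3-56 groups, with the mean (bar) and SD (whiskers) of each group; each vertical axis starts at 0. *Hmgcs1*, *Idi1*, *Insig1*, *Acaca* and *Acly* show 3 groups without overlap, *Insig1* only just. The share of all genes with such groups is not given. *Fasn* stays at 317 and 368 CPM in the dual-treated mice, within the range of the LPS mice. *Scd1* reaches 1492 and 1197 CPM, within or near the range of the control mice.

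The values of the dual-treatment group can be placed against the ranges of the other groups. *Hmgcs1*, *Idi1*, *Acaca* and *Acly* lay between control and LPS without overlap with either. *Scd1* lay with control, and *Fasn* lay with LPS. *Sqle* overlapped LPS and lay below control. *Insig1* lay below both other groups, but only just below LPS (62.1 CPM in dual-treated mouse 5, 62.7 in LPS mouse 6). The share of all genes whose groups do not overlap is not given, here or for the single genes above and below. Whether these patterns differ from gene to gene was not tested.

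The 8 genes differed widely in level. Divided by the length of the canonical transcript, *Scd1* had the highest level in control lungs with 279 CPM per kb (from 242 to 347 over the 3 mice). *Acly* with 57.3 (from 52.7 to 61.0) and *Fasn* with 56.1 CPM per kb (from 46.9 to 63.7) overlapped. *Insig1* with 29.2 CPM per kb (from 26.8 to 33.1) and *Hmgcs1* with 21.2 (from 20 to 22.9) came next without overlap. *Acaca* with 12.2 (from 10.3 to 13.1) and *Sqle* with 11.9 CPM per kb (from 11.7 to 12.3) overlapped, and *Idi1* was lowest with 8.88 (from 8.31 to 9.80). With LPS the levels per kb of *Hmgcs1* (from 9.57 to 12.4) and *Sqle* (from 8.41 to 12.2) came to overlap, while *Acaca* (from 3.99 to 5.02) fell clear below *Sqle*. In the dual-treatment group *Sqle* (9.81 and 10.9) stayed above *Acaca* (8.84 and 9.01 CPM per kb). The order rests on the transcript chosen. Over the union of all annotated exons the control level of *Acly* was 17.3 CPM per kb, that of *Fasn* 51.7, and *Sqle* was lowest with 3.77.

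The genes lie on 5 chromosomes of GRCm39. *Acaca* is at chr11:84020476-84292477 (+ strand), *Acly* at chr11:100367165-100440756 (- strand) and *Fasn* at chr11:120696672-120715995 (- strand). *Idi1* is at chr13:8935537-8942487 (+ strand) and *Hmgcs1* at chr13:120151915-120170470 (+ strand). *Insig1* is at chr5:28276315-28283668 (+ strand), *Sqle* at chr15:59186869-59203043 (+ strand) and *Scd1* at chr19:44382894-44399154 (- strand). All 8 genes but *Fasn* and *Scd1* overlap another annotated gene, such as *Nim1k* at *Hmgcs1*, *Washc5* at *Sqle* and *Tada2a* at *Acaca*. The strand setting of the counting was not stated, so reads in these overlaps are uncertain.

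As a description, the promoters of the 8 genes were searched for letters known from SREBP target genes. RefSeq promoter windows (GRCm38.p6, 250 bases before to 50 after the start site) were matched for 6 of the 8 genes, and each window was found at a single place in GRCm39. *Sqle* and *Scd1* had no window in the table. On both strands, the SREBP element was searched as TCACNCCAC, the NF-Y box as CCAAT and the Sp1 box as GGGCGG. The SREBP letters were in 1.24% of all 32817 windows and in 1 of the 6, that of *Hmgcs1*, where they start 137 bases before the start site. The NF-Y letters were in 37.4% of all windows and in 5 of the 6, all but *Acaca*. The Sp1 letters were in 35.6% of all windows and in 4 of the 6, those of *Acly*, *Hmgcs1*, *Idi1* and *Insig1*. The RefSeq start sites of all 6 but *Hmgcs1* lie inside the annotated genes, which also have starts further upstream.

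The bases before the start site and outside the gene's annotated exons are shown for *Hmgcs1* and *Fasn*. *Hmgcs1* fell with LPS and was higher again with the dual treatment, and *Fasn* was low in both treated groups. The windows of *Idi1*, *Acaca* and *Acly*, which were also higher against LPS, held no SREBP letters. A relation of the letters to the changes was not tested. Capitals mark the SREBP and NF-Y letters, read on either strand, so that ATTGG is an NF-Y match on the other strand. The *Hmgcs1* stretch of 150 bases is chr13:120151737-120151886 (+ strand, GRCm39), just before the gene, and overlaps an exon of *Gm60502*. The *Fasn* stretch of 121 bases is chr11:120715403-120715523 (- strand, GRCm39), ends 29 bases before the RefSeq start site, and lies in an intron of transcripts that start further upstream.
Hmgcs1: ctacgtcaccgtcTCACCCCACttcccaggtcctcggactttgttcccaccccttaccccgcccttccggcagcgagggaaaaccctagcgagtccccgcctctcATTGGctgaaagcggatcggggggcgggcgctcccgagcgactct
Fasn: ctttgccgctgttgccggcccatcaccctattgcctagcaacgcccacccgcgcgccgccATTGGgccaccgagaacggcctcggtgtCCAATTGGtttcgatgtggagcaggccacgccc

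The full window of *Hmgcs1* holds 4 NF-Y matches, 1 of them in the stretch shown, and that of *Fasn* holds 3, all in the stretch shown, of which 2 overlap in CCAATTGG. Over the lists of pathway enzymes, 16 of 17 matched genes of cholesterol synthesis and 9 of 15 of fatty acid synthesis had the NF-Y letters in a window. These are counts of genes, while the shares of all promoters above are of windows. The Sp1 letters were in 15 of the 17 and 9 of the 15. The SREBP letters were in 1 and 0. A match of letters is a description of the window and not a measured site.

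Among 20 enzymes of cholesterol synthesis, LPS lowered 11 and raised 1, beside 33.9% and 32.6% of all genes, with a median log2FC of -0.50. The lowest were *Mvk* (-2.13 ± 0.322), the mevalonate kinase, *Idi1* and *Dhcr7* (-1.93 ± 0.179), which makes the last step to cholesterol in 1 branch. The 1 raised was *Lbr*, which encodes a sterol reductase that is also a receptor of the nuclear lamina. It had 49.4, 45.4 and 42.8 CPM in control mice, 81.3, 69.4 and 73.9 CPM in LPS mice, and 50.1 and 44.1 CPM in dual-treated mice. It was thus highest in all LPS mice, opposite to *Hmgcs1* (log2FC 0.71 ± 0.101, adjusted p = 0.000200 by edgeR). Its call held without any 1 mouse, and the count raised became 2 without LPS mouse 6 or either dual-treated mouse.

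In the dual-treatment group 7 of the 20 enzymes were higher than in the LPS group and 1 was lower, beside 31.7% and 27.4% of all genes, with a median of 0.29. The highest were *Mvk* (1.81 ± 0.344), *Dhcr7* (1.44 ± 0.193) and *Nsdhl* (0.95 ± 0.181), and the lower one was *Lbr* (-0.67 ± 0.114, adjusted p = 0.000851 by edgeR). Scaling by library size alone made the 7 a count of 12, beside 42.5% of all genes called higher under it, and the count lowered was 3 without LPS mouse 6 and 2 without either dual-treated mouse. Against control 5 were lower, beside 7.02% of all genes (median -0.42), led by *Idi1*, *Cyp51* (-0.93 ± 0.137) and *Acat2* (-0.86 ± 0.160), and none was higher, also at an unadjusted p or with DESeq2. The 5 became 3 without control mouse 1 or 2, 2 without control mouse 4 and 1 without dual-treated mouse 2.

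Of 20 genes of fatty acid synthesis and desaturation, LPS lowered 15 and raised 2, beside 33.9% and 32.6% of all genes, with a median log2FC of -0.92. The lowest were *Thrsp* (-4.09 ± 0.828), a lipogenic activator, the desaturase *Scd2* (-2.42 ± 0.217) and the desaturase *Fads1* (-1.97 ± 0.118). *Scd2*, the close relative of *Scd1*, had 965, 910 and 979 CPM in control mice, 232, 153 and 147 CPM in LPS mice, and 348 and 542 CPM in dual-treated mice. Its 3 groups did not overlap, and it fell further with LPS than *Scd1* did, though the difference was not tested. The size of the fall of *Thrsp* rested more on single mice, with 8.32, 71.3 and 16.0 CPM in control mice. It had from 0.534 to 3.49 CPM in the other 5. Its log2FC with LPS ran from -5.88 to -2.7 over the alternatives, and its call with LPS held without any 1 mouse. The raised genes were the elongase *Elovl6* (1.54 ± 0.353) and *Hsd17b12* (1.26 ± 0.139), a reductase of the same elongation cycle.

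The dual-treatment group was higher than LPS in 14 of the 20 genes and lower in 2, *Elovl6* (-1.99 ± 0.417) and *Hsd17b12* (-0.53 ± 0.154), beside 31.7% and 27.4% of all genes, with a median of 0.67. The highest were the elongase *Elovl1* (1.66 ± 0.160), *Scd2* (1.33 ± 0.227) and *Fads1* (1.32 ± 0.126). *Elovl1* had 299, 303 and 406 CPM in control mice, 87.6, 94.2 and 92.5 CPM in LPS mice, and 255 and 324 CPM in dual-treated mice, which overlapped control and not LPS. Against control 8 were lower and 1 was higher, beside 7.02% and 9.13% of all genes (median -0.42), among them *Thrsp* (-3.41 ± 0.918), *Scd2* (-1.10 ± 0.238) and *Mid1ip1* (-0.85 ± 0.181) on the lower side and *Hsd17b12* (0.74 ± 0.151) on the higher. The call of *Thrsp* was lost without control mouse 2 (-2.02, adjusted p = 0.0742 by edgeR), dual-treated mouse 2 (adjusted p = 0.147) or dual-treated mouse 5 (adjusted p = 0.120). The 8 became 5 without control mouse 2 and 1 without dual-treated mouse 2, and the call of *Hsd17b12* was lost without dual-treated mouse 2. Its call against LPS was lost without dual-treated mouse 5 (-0.32, adjusted p = 0.101 by edgeR) and with library size scaling (-0.20).

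**Figure D2:**
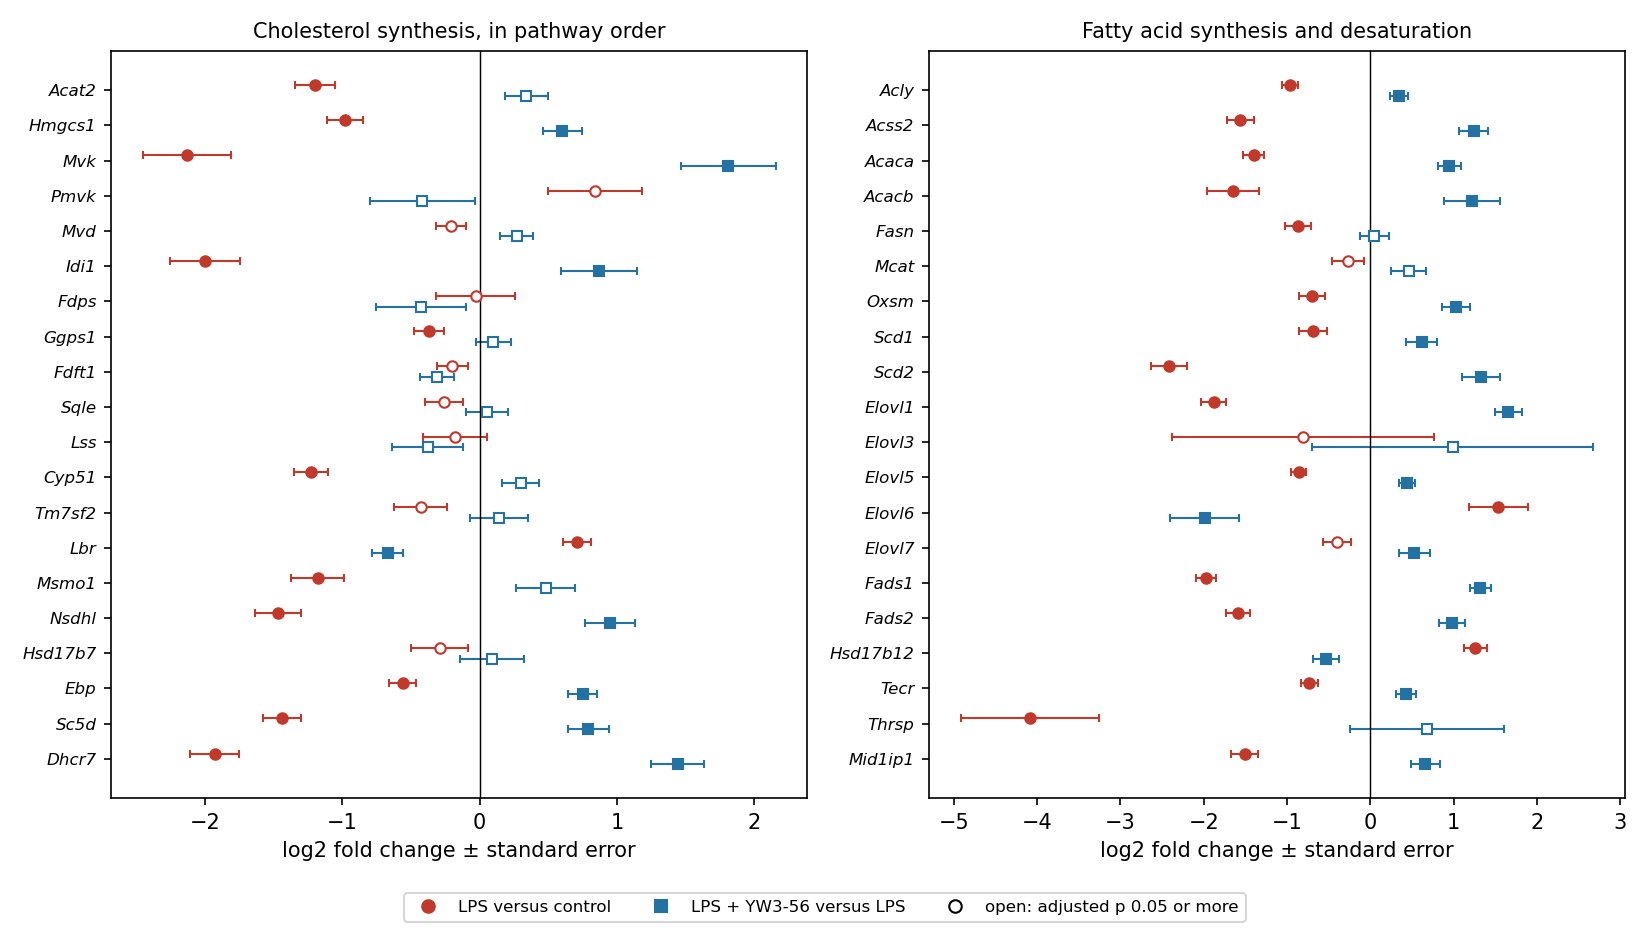
Log2 fold change ± standard error of 20 cholesterol synthesis enzymes, in pathway order, and of 20 genes of fatty acid synthesis and desaturation, for LPS versus control (circles) and LPS + YW3-56 versus LPS (squares); filled symbols had an adjusted p under 0.05. *Lbr*, *Elovl6* and *Hsd17b12* are the called genes to the right of 0 with LPS; the LPS mice enter both comparisons.

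The sensors and regulators around *Insig1* were read in the same way. Of 13 genes of the SREBP machinery and sterol uptake, 3 were higher and 6 lower with LPS (median -0.26), 4 higher and 3 lower in the dual-treatment group against LPS (0.06), and 0 and 3 against control (-0.12). Beside these and the list counts that follow stand 32.6% of all genes higher and 33.9% lower with LPS, 31.7% and 27.4% against LPS, and 9.13% and 7.02% against control. *Insig2*, the relative of *Insig1*, had 52.2, 59.3 and 53.2 CPM in control mice, 25.8, 26.9 and 28.8 CPM in LPS mice, and 56.6 and 49.6 CPM in dual-treated mice. It was low in all LPS mice and overlapped between the other groups (log2FC with LPS -1.02 ± 0.0993, adjusted p = 1.79e-05 by edgeR). *Srebf2*, the factor best known for cholesterol genes, was higher with LPS (0.44 ± 0.0973, adjusted p = 0.00292) and lower in the dual-treatment group than in LPS (-0.56 ± 0.11, adjusted p = 0.00200). Both calls were lost with scaling by library size alone (0.15 and -0.23). *Srebf1*, best known for fatty acid genes, was called lower with LPS (-0.33 ± 0.116, adjusted p = 0.0298), but not without control mouse 2 or 4 or LPS mouse 6 (adjusted p from 0.0812 to 0.111). The lysosomal lipase *Lipa* (-1.65 ± 0.145) and the sterol carrier *Stard4* (-1.31 ± 0.153) were the lowest with LPS and the highest against LPS in the dual-treatment group (1.54 ± 0.156 and 1.08 ± 0.166). *Mylip*, a ubiquitin ligase induced by LXR factors, and the sterol carrier *Npc2* went the other way (-1.19 ± 0.175 and -0.96 ± 0.162 against LPS), although with library size scaling their calls with LPS were lost (0.20 and 0.29), and that of *Mylip* also without control mouse 4.

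Other lists gave the setting of the 8 genes. Of 9 genes of sterol efflux, esterification and oxysterols, 4 were higher and 4 lower with LPS (median -0.10), 3 and 2 in the dual-treatment group against LPS (0.11), and 4 and 3 against control (-0.05). *Nr1h3*, the LXR alpha receptor that senses oxysterols and induces *Scd1*, *Fasn* and *Srebf1* in many tissues, had 58.4, 68.9 and 74.6 CPM in control mice, 14.1, 14.9 and 10.3 CPM in LPS mice, and 97.8 and 126 CPM in dual-treated mice. It was low in all LPS mice and highest in the dual-treated mice (log2FC -2.36 ± 0.168 with LPS and 3.09 ± 0.180 between the dual-treatment and LPS groups). *Ch25h*, which makes an oxysterol that blocks SREBP activation, was higher than control in both treated groups (3.04 ± 0.381 and 3.08 ± 0.401), with 71.6 and 26.0 CPM in the 2 dual-treated mice. Without dual-treated mouse 2 the latter value was 2.15, and *Ch25h* was called lower than with LPS (-0.89, adjusted p = 0.0417 by edgeR). Of 7 genes of citrate and NADPH supply, 4 were higher and 1 lower with LPS (median 0.41), 1 and 3 in the dual-treatment group against LPS (-0.35), and 3 and 0 against control (0.28). *Pgd*, an NADPH source, rose by 1.48 ± 0.108 with LPS while *Acly*, *Acaca* and *Fasn* fell. Of 13 genes of triglyceride and phospholipid synthesis, 3 were higher and 6 lower with LPS (-0.23), 5 and 4 against LPS (-0.17), and 0 and 3 against control (-0.07). *Lpcat1*, the acyltransferase of surfactant lipid, fell by 1.86 with LPS. Of 14 genes of fatty acid oxidation, 6 were higher and 6 lower with LPS (0.17), 3 and 2 against LPS (0.15), and 2 and 0 against control (-0.05). The count of 6 higher fell to 3 without control mouse 1 and 2 without control mouse 4. Without LPS mice 6 and 7, which leaves 1 LPS mouse, the log2FC of *Cpt1a*, *Slc25a20*, *Hadhb* and *Etfdh* was 0.33, 0.28, 0.33 and 0.25. With all mice it was 0.56, 0.41, 0.37 and 0.40. *Cpt1b* had 1.70 there, beside 1.46, and *Acadl* had at least 0.83 in every setting. Against control, the counts of the lists of SREBP machinery, triglyceride synthesis and fatty acid oxidation were 0 without dual-treated mouse 2 or without control mouse 2. The first was also 0 without control mouse 1, the last without control mouse 4, and that of triglyceride synthesis without control mouse 1 or 4 or dual-treated mouse 5. The 3 lower genes of sterol efflux became 1 without control mouse 2 or dual-treated mouse 2. Against LPS, leaving out dual-treated mouse 5 moved the count lower from 2 to 1 for sterol efflux and from 4 to 2 for triglyceride synthesis, and leaving out mouse 2 moved the count higher for NADPH supply from 1 to 2. Against control 1 gene of NADPH supply was lower without LPS mouse 7 or dual-treated mouse 5, and 1 of fatty acid oxidation without LPS mouse 1 or 7. With library size alone, under which 23.4% of all genes were higher and 42.2% lower with LPS and 42.5% and 17.4% against LPS, the splits of the lists moved with those of all genes. The genes higher and lower with LPS were then 0 and 8 for SREBP machinery and 1 and 6 for fatty acid oxidation. Against LPS they were 7 and 2 for SREBP machinery, 3 and 1 for sterol efflux, 3 and 1 for NADPH supply, 6 and 1 for triglyceride synthesis, and 6 and 0 for fatty acid oxidation. The 3 genes of triglyceride synthesis lower than control became 1.

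The samples carried lung markers. *Sftpc*, the surfactant gene of alveolar type 2 cells and the most abundant of that list, ran from 8322 to 24540 CPM over the 8 mice, *Ager* of alveolar type 1 cells from 979 to 2432 CPM and *Cdh5* of endothelium from 510 to 938 CPM. The summed level of the 9 type 2 cell markers was 39140, 32890 and 41120 CPM in control mice, 29470, 21160 and 17330 CPM in LPS mice, and 21770 and 32130 CPM in dual-treated mice. It was lower in all LPS mice than in any control mouse. Of these markers 7 were lower and 1 higher with LPS (median -0.91), 4 higher and none lower in the dual-treatment group against LPS (0.46), and none was called against control (-0.31). The call of *Sftpc* with LPS was lost without control mouse 1 or 4 or LPS mouse 6 or 7 (adjusted p from 0.0691 to 0.0815 by edgeR). Leaving out LPS mice 6 and 7 together leaves 1 LPS mouse. The log2FC with LPS of *Sftpc*, *Sftpb*, *Lamp3* and *Napsa* was then -0.45, -0.52, -0.21 and -0.24. With all mice it was -0.93, -0.91, -0.55 and -0.44. *Abca3*, *Slc34a2* and *Etv5* stayed at or below -1.14 in every setting. The count of 0 lower against LPS became 1 without LPS mouse 7 or dual-treated mouse 2. Against control 1 was lower without control mouse 2, 2 were lower and 1 higher without dual-treated mouse 5, and 1 was higher without LPS mouse 1 or 7. These markers moved in the direction of most of the 8 lipid synthesis genes, and their part in the changes of those genes was not tested. With LPS 3 of 5 type 1 cell markers, 3 of 6 endothelial markers and 3 of 8 alveolar macrophage markers were lower and none was higher. Against LPS the dual-treatment group had 3, 2 and 4 of them higher and 1, 0 and 0 lower, and against control 0, 1 and 1 higher and 2, 1 and 0 lower. With library size scaling all 5 type 1 markers were lower with LPS, none was lower against LPS, and 1 type 2 marker was higher than control. Several of these counts also changed with 1 mouse left out. The macrophage count higher with LPS was 1 without control mouse 1 and 2 without LPS mouse 7. The 1 type 1 marker lower against LPS, *Ager*, lost its call without any 1 of the control mice, LPS mouse 1 or 6 or dual-treated mouse 2, and 1 endothelial marker was lower without LPS mouse 7. Against control the 2 lower type 1 markers became 1 without any 1 control mouse, LPS mouse 6 or dual-treated mouse 2. Both endothelial calls were lost without control mouse 1 or dual-treated mouse 2, the higher one also without control mouse 2 and the lower one without control mouse 4. The macrophage count higher than control was 2 without LPS mouse 7 or dual-treated mouse 5, and without the latter 1 was lower. The most abundant macrophage marker, *Chil3*, ran from 340 to 1244 CPM. All 6 neutrophil markers were higher than control in both treated groups, and 3 of them were higher in the dual-treatment group than with LPS, a count that became 1 without dual-treated mouse 5. Their summed level was 225, 125 and 130 CPM in control mice, 2153, 2981 and 1882 CPM in LPS mice, and 1731 and 2406 CPM in dual-treated mice, with *S100a9* the most abundant. The 3 markers higher against LPS were *Retnlg*, *Csf3r* and *Cxcr2* (log2FC 1.49, 1.05 and 1.48). Without LPS mice 6 and 7, which leaves 1 LPS mouse, their log2FC was 1.35, 1.14 and 1.13.

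Genes of other tissues stood out in some libraries. The 8 white adipocyte markers summed to 96.8, 388 and 117 CPM in control mice, 91.1, 195 and 233 CPM in LPS mice, and 546 and 62.4 CPM in dual-treated mice, with *Cfd* the most abundant and *Pck1* at 0 in LPS mouse 1. They were highest in dual-treated mouse 2 and control mouse 2, and adipocytes are rich in *Fasn*, *Scd1*, *Acly* and *Thrsp*. With LPS 2 of the 8 were lower and none higher, against LPS 2 were higher and none lower, and against control 1 was lower and none higher. The 2 lower with LPS became 1 without control mouse 2 or any 1 LPS mouse. The 2 higher against LPS became 1 without LPS mouse 1 or 6 and 0 without dual-treated mouse 2. *Scd1* had its higher value of the dual-treatment group in mouse 2, while *Fasn* and *Acly* had theirs in mouse 5. The part of adipocytes in the values of the 8 genes, here and in the setting that follows, was not tested. Without control mouse 2 and dual-treated mouse 2, a choice made after the data were seen, 6 of the 8 lipid synthesis genes were still lower with LPS. In that setting 3 were higher in the dual-treatment group than in LPS, and 0 were lower than control, where 1 dual-treated mouse is left. Of the 8 adipocyte markers 2 were then higher and 2 lower with LPS, and 2 were lower and none higher against LPS.

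Of 5 brown adipocyte markers, *Otop1*, not tested, was at 0 in control mice 1 and 4 and dual-treated mouse 5. Their summed level was 5.82, 80.5 and 5.66 CPM in control mice, 402, 263 and 415 CPM in LPS mice, and 8.30 and 4.35 CPM in dual-treated mice. Most of it in LPS mice was *Dio2*, the most abundant of the list, with 393, 244 and 351 CPM. Of the 4 tested, 1 was higher with LPS and 2 were lower in the dual-treatment group against LPS, with none called against control. Without control mouse 2 all 4 were higher with LPS and lower against LPS, and without LPS mouse 1 or 7, 1 was lower than control. The 7 squamous epithelium markers summed to 699 CPM in LPS mouse 6 and 1991 CPM in LPS mouse 7, and to at most 3.00 CPM in the other 6 mice, with *Krt13* the most abundant. *Krt5*, *Krt4*, *Krt16*, *Crct1*, *Sprr3* and *Krt6b* were at 0 in some of the other mice. The 6 skeletal muscle markers summed to 408 and 1100 CPM in LPS mice 6 and 7 and to at most 19.8 CPM in the others, with *Acta1* the most abundant and, like *Myh4*, at 0 in 1 mouse. All 7 and all 6 were called higher with LPS and lower in the dual-treatment group against LPS, and none was called against control. Without LPS mouse 6 or 7, 5 of the 7 squamous markers missed the filter on low counts and were not tested. *Krt13* kept its call with LPS there, *Krt5* lost it (adjusted p = 0.0662 and 0.0909 by edgeR), and both stayed lower against LPS. With all 7 tested, the 7 lower against LPS became 4 without dual-treated mouse 2 and 3 without dual-treated mouse 5. The muscle counts stayed between 4 and 6, with 1 marker not tested without LPS mouse 6 or 7. Without LPS mouse 1, 1 marker of each list was lower than control.

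Leaving out LPS mice 6 and 7 leaves 1 LPS mouse, and the test then takes its spread from the other groups alone. In that setting 6 of the 8 lipid synthesis genes were called lower with LPS, although *Scd1* no longer passed (-0.53, adjusted p = 0.0950 by edgeR) and *Sqle* did (-0.50, adjusted p = 0.0131). The count higher in the dual-treatment group than in LPS became 3, as *Scd1* (0.47, adjusted p = 0.158) and *Acly* (0.28, adjusted p = 0.147) were lost. The part of the squamous and muscle genes in the other values was not tested.

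The LPS libraries had lower TMM factors (from 0.810 to 0.930) than the control (from 1.06 to 1.08) and dual-treated libraries (1.11 and 1.09). With library size alone the share of all calls that were higher moved from 49.0% to 35.6% with LPS and from 53.6% to 71.0% against LPS.

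As a description of pattern, the genes outside the pathway lists most like *Sqle* over the 8 mice were *Cep89*, *Rassf9*, *Nr2c2*, *Rab25* and *Plekha6*, with Pearson's r of log2 CPM from 0.968 to 0.983 among 12062 genes with a mean of at least 5 CPM. Those most like *Fasn* were *Ltbp3*, *Map3k20*, *Cacna1c*, *Pdzd2* and *Ogn*, with r from 0.968 to 0.982. The points are 8 mice of 3 groups, and no gene was shared between the 2 sets.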

How the data were processed

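Lung RNA of 8 mice was sequenced. Per the submitters' processing notes and the methods, the authors filtered reads with FastQC 0.11.9 and Trim Galore, aligned them to GRCm39 with HISAT2 2.2.1, counted them per gene with featureCounts 2.0.1 and deposited raw counts without normalization. The annotation release, strand setting and treatment of multimapping reads were not given in the sources used here. Of 55416 gene IDs, 54749 matched GENCODE M39; the other 667 held 0.0533% of counts.

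The test was the quasi-likelihood test of edgeR 4.0.16 under R 4.3.3, fitted to all 8 libraries with TMM factors after filterByExpr, with 5 residual degrees of freedom. A call was a Benjamini-Hochberg adjusted p under 0.05 over 18560 genes. On simulated data with 200 of 18560 genes changed by a log2FC of 2, the fit recovered from 76% to 79.5% of them. It called from 0.0545% to 0.0599% of the unchanged genes. Smaller changes were not simulated. Nor were data in which as many genes change as here, where 32.6% were called higher and 33.9% lower with LPS. The simulated shares thus do not give the rates of the real comparisons. DESeq2 1.42.0, other scalings, filters and call rules, and leaving out mice were alternatives. The 8 genes and the lists were chosen with earlier results of these data known. Of the planned lists, 3 genes are not reported here, and the list counts were recomputed without them after the results were seen. Named genes are the 8, *Srebf1*, *Srebf2*, *Insig2*, *Scd2*, up to 3 called genes with the highest and up to 3 with the lowest log2FC per list and comparison, the most abundant marker of each list and markers at 0, the 5 genes most like *Sqle* or *Fasn*, and genes that overlap the 8. Promoters came from RefSeq (GRCm38.p6).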

Additional observations from a re-analysis of the deposited data

How the results depend on the processing

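Each count was recomputed under 17 alternatives, and no gene of the 8 changed direction where it was called. Under the rule of the methods (fold change over 2 and unadjusted p under 0.05), 2 of the 8 genes were lower with LPS, 0 were higher in the dual-treatment group than in LPS, and 1 was lower than control. Of the cholesterol enzymes 0 were higher with LPS, 2 were higher and 0 lower against LPS, and 1 was lower than control. Of the fatty acid genes 9 were lower with LPS, 6 were higher and 1 lower against LPS, and 0 were higher and 2 lower than control. This rule asks for a larger change, and most called changes of the 8 genes were under 2-fold. The share of all genes that pass this rule is not given here, so these counts stand without a background. For the settings that follow the cause was not tested. Scaling by library size alone gave 12 cholesterol enzymes higher and 1 fatty acid gene lower against LPS. Without a filter on low counts or with DESeq2 size factors in edgeR 2 cholesterol enzymes were higher with LPS. DESeq2 and its size factors in edgeR each gave 2 cholesterol enzymes lower against LPS. A fit of only the 2 compared groups gave 2 cholesterol enzymes higher with LPS and 3 of the 8 genes higher against LPS. Without LPS mice 6 and 7, 2 cholesterol enzymes were higher with LPS, and 3 of the 8 genes were higher and 1 fatty acid gene was lower against LPS. Without control mouse 2 and dual-treated mouse 2, chosen after the data were seen, 2 cholesterol enzymes were higher with LPS and 2 lower against LPS, 3 of the 8 genes were higher against LPS, and 0 of the 8, 0 cholesterol enzymes and 0 fatty acid genes were lower than control and 0 fatty acid genes were higher.

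Leaving out 1 mouse at a time gave from 6 to 8 of the 8 genes lower with LPS, from 2 to 5 higher against LPS, and from 1 to 5 lower than control. Cholesterol enzymes ran from 1 to 2 higher with LPS, from 1 to 3 lower against LPS, and from 1 to 6 lower than control. Fatty acid genes ran from 10 to 14 higher and from 1 to 2 lower against LPS, and from 0 to 1 higher and from 1 to 9 lower than control. With 1 dual-treated mouse or LPS mice 6 and 7 left out, 1 mouse is left in the group and is assumed to vary like the other groups. No paired analysis was possible because the groups share at most 1 mouse number, which does not mark the same animal.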
